A study of Rattus norvegicus with 30 samples.

Results

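The genes described here encode subunits of voltage-gated calcium channels and voltage-gated sodium channels in the rat hippocampus, together with the gamma subunit family that includes auxiliary proteins of AMPA-type glutamate receptors. Members were defined by symbol, with earlier results of these data known. Every probe whose gene symbol begins with *Cacna*, *Cacnb*, *Cacng* or *Scn* and a digit was taken. This gave 34 genes with 1 probe each, out of 13337 genes with a symbol and 22523 probes on the array. The tissue was whole dissected hippocampus of adult Sprague Dawley rats, with each rat on its own Illumina expression array. Every group of females (control, minimal response, extreme response) had 5 rats. Males numbered 5 controls, 5 with an extreme response and, with values, 4 with a minimal response. Controls went through the behavioural tests without meeting predator scent, a natural threat used as a model of traumatic stress. The other rats were exposed to it and were grouped by a minimal or an extreme behavioural response afterwards. The series compares exposed with unexposed rats, and extreme with minimal responders, in each sex.

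A calcium channel of the high-voltage-activated kind has a pore-forming alpha subunit and an intracellular beta subunit. The beta subunit brings the pore to the membrane and sets its gating. An extracellular alpha2delta subunit raises the surface level of the channel. Sodium channels have a pore-forming alpha subunit that starts the action potential and small beta subunits with a membrane-spanning segment that set gating and location. In the hippocampus these channels govern firing, transmitter release and calcium entry at synapses. Several proteins named as gamma subunits act instead as TARPs, which carry AMPA receptors to the synapse.

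Values are intensities on a log2 scale. Levels of different probes are not comparable, and only differences between rats on the same probe are given. A probe was tested when its value was higher than 7.03 on 5 or more arrays, and 26 of the 34 members passed among 11888 of all probes (52.8%). All 9 hippocampal neuron markers on the array passed, among them *Prox1* and *C1ql2* of granule cells. No probe was present for *Xist* or for the 5 Y-linked genes listed as a sex check, and 0 probes lay on the Y chromosome by gene ID, so the sex labels could not be checked. The array least like the others was that of male extreme responder 4, at a median correlation of 0.974 over all probes against 0.983 for the next lowest rat. The arrays also fell into 2 sets that no label gives. They are told apart by *Rpl37l1*, a ribosomal protein gene with no array between 10.13 and 11.32. The set with high *Rpl37l1*, called set A, had 12 rats, made up of 3 controls and 3 minimal responders of each sex. None (0) of the 10 rats with an extreme response was in it. What the sets stand for is not known here, and comparisons that include extreme responders are in part confounded with them. The p-values set each difference against the spread between rats within groups, estimated over all 6 groups together. In whole tissue, fewer cells of a type and less RNA per cell cannot be told apart.

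Of the calcium channel pores, *Cacna1c* and *Cacna1d* (L-type), *Cacna1a* (P/Q-type), *Cacna1b* (N-type), *Cacna1e* (R-type) and the low-voltage-activated T-type pores *Cacna1g* and *Cacna1h* were tested. *Cacna1c* was above background on 29 of 29 arrays and *Cacna1d* on 28. *Cacna1a* was above background on 10 arrays and *Cacna1b* on 15, so these probes sat at the edge of detection. All 4 beta subunits were tested, as were *Cacna2d1* and *Cacna2d3* of the alpha2delta subunits. Of the gamma family, *Cacng2*, *Cacng3*, *Cacng4*, *Cacng7* and *Cacng8*, which encode TARPs, were tested. The sodium channel pores tested were *Scn1a*, *Scn2a*, *Scn8a*, the atypical sodium sensor *Scn7a*, and *Scn10a*, a pore of sensory neurons that was above background on 8 arrays. The beta subunits tested were *Scn2b*, *Scn3b* and *Scn4b*. The 8 members that were not tested were the alpha2delta genes *Cacna2d2* and *Cacna2d4*, the gamma family genes *Cacng1*, *Cacng5* and *Cacng6*, the skeletal muscle pore *Scn4a*, and the sensory neuron pores *Scn9a* and *Scn11a*. *Scn4a* was above the limit on 1 array, by less than the rounding of 7.03, and the other 7 on 0.

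*Cacnb2*, which encodes a beta subunit of high-voltage-activated calcium channels, was the member that differed between extreme and minimal female responders. Its log2 intensity in female extreme responders was 8.17, 8.16, 8.12, 8.04 and 7.99. In female minimal responders it was 7.82, 7.77, 7.81, 7.86 and 7.73. Every extreme female lay above every minimal female. The mean rose from 7.80 ± 0.05 (SD, n = 5) in minimal to 8.10 ± 0.08 (SD, n = 5) in extreme responders. The log2 difference was 0.30 ± 0.06 (SE), a 1.23-fold difference (limma, adjusted p = 0.00823). *Cacnb2* was 1 of 26 members called in this comparison, beside 3.79% of all probes tested, a share close to that of the members. With the array set as a block the difference was 0.28 ± 0.07 (adjusted p = 0.0265), 1 of 26 members called beside 3.26% of all probes. Within set B, which held 5 extreme and 2 minimal females, it was 0.28 (adjusted p = 0.267) and was not called, and 0 of all probes were called there.

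Female controls stood with the extreme responders rather than with the minimal responders. The 5 female controls had *Cacnb2* values of 8.17, 8.17, 8.10, 8.06 and 8.04, with a mean of 8.11 ± 0.06 (SD). All of them lay above the minimal females, 1 of 26 members whose groups did not overlap in this comparison, where 2.09% of all probes did not overlap. The minimal minus control difference was -0.31 ± 0.06 (SE) and missed the threshold (limma, adjusted p = 0.0891), in a comparison that called 0 of 26 members and 0% of all probes. Extreme females differed from female controls by -0.01, with a 95% interval from -0.14 to 0.12 (adjusted p = 0.973).

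In males the 3 groups had nearly equal *Cacnb2* means. Male controls had 7.86, 7.94, 7.67, 7.79 and 7.60, with a mean of 7.77 ± 0.14 (SD, n = 5). Male minimal responders had 7.75, 7.82, 7.80 and 7.68, with a mean of 7.76 ± 0.06 (SD, n = 4). Male extreme responders had 7.65, 7.63, 7.89, 7.77 and 7.79, with a mean of 7.75 ± 0.10 (SD, n = 5). The male groups overlapped one another throughout, and the extreme minus minimal difference was -0.02, with a 95% interval from -0.16 to 0.12. The lowest of the 10 female control and female extreme rats was 7.99, and the highest of the other 19 rats was 7.94. This split of the groups was chosen after the values were seen. Its share over all probes was not counted.

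Over the 3 groups together, *Cacnb2* was lower in males than in females by 0.24 ± 0.04 (SE) on the log2 scale, a 1.18-fold difference (limma, male minus female -0.24, adjusted p = 0.00231). This was 1 of 26 members called, beside 0.21% of all probes, and again 1 of 26 with the array set as a block, beside 0.471%. The sexes lay apart in controls and extreme responders and side by side in minimal responders, at 7.76 in males and 7.80 in females. The test of whether the extreme minus minimal difference itself differed between the sexes gave -0.32 ± 0.09 (SE) and did not pass (adjusted p = 0.294), and that of the minimal minus control difference gave 0.30 ± 0.09 (SE, adjusted p = 0.318). In both of these tests 0 of 26 members and 0% of all probes were called. Females and males carry rat identifiers of different series, and sex cannot be told apart from any handling that followed those series. Choroid plexus markers moved beside the sexes: 0 of 6 were higher in males, with a median of -0.42 against 0.00 for all probes, none of them called. Their mean level per rat ran from 7.81 to 11.34 in females and from 7.63 to 10.82 in males, and their part in the *Cacnb2* difference was not tested.

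**Figure D1:**
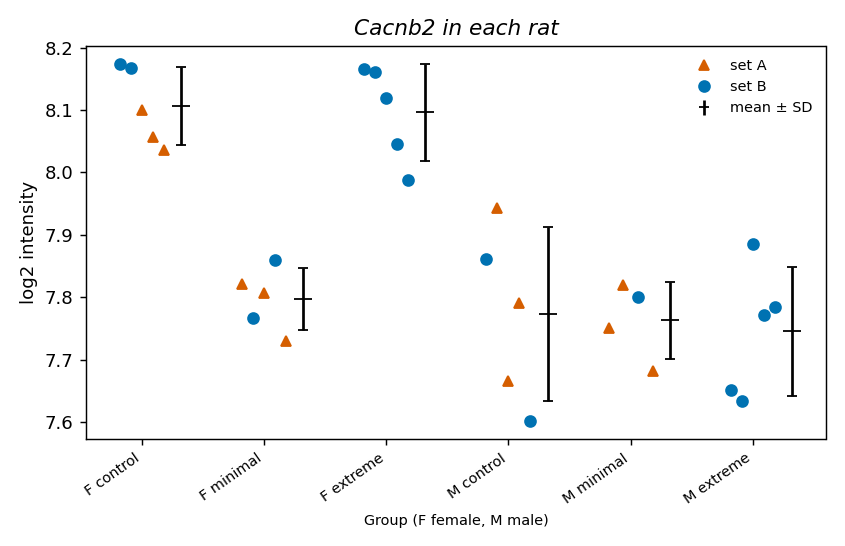
*Cacnb2* log2 intensity (vertical axis) in each of the 29 rats, by group (horizontal axis); triangles are rats of set A, circles rats of set B, and bars the group mean with its SD. The 10 female controls and female extreme responders sit at 7.99 or above, and the other 19 rats at 7.94 or below, a split chosen after the values were seen.

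Some markers of other cells differed between extreme and minimal females, where 3.79% of all probes were called. Astrocyte markers were higher in 6 of 7, with a median of 0.13. Choroid plexus and striatum markers were each higher in 2 of 6, and microglia markers in 3 of 6. None of these 4 lists held a call. Of 10 oligodendrocyte markers, 9 were higher in extreme than in minimal females, with a median log2 difference of 0.34, and *Olig1* (0.55, adjusted p = 0.00807) and *Cnp* (0.52, adjusted p = 0.0434) passed the test. With the array set as a block the median was 0.22 and *Olig1* passed. *Tie1* of 3 endothelial and pericyte markers rose by 0.40 (adjusted p = 0.0148), and was 0.47 higher with the block (adjusted p = 0.00956). Of 9 hippocampal neuron markers 8 were higher, with a median of 0.07, and *Nrgn* was the 1 that was lower. *Nrgn* fell by 0.38 (adjusted p = 0.0337), and with the block it was -0.31 and not called (adjusted p = 0.111). The mean oligodendrocyte marker level per rat ran from 9.85 to 10.53 in minimal and from 10.26 to 10.73 in extreme females. Of 2 striated muscle genes tested, *Acta1* of skeletal muscle actin fell by 0.46 (adjusted p = 0.00916), and with the array set as a block by 0.39 (adjusted p = 0.0395). The other, *Myl1*, was 0.19 higher (adjusted p = 0.301). The part of these markers in the *Cacnb2* difference was not tested. In extreme minus control males 7 of 9 hippocampal neuron markers were lower and 2 higher, with a median of -0.07. *C1ql2* was called as lower there, beside 0.622% of all probes, and with the block 0 of the 9 were called. The part of these markers in the differences of channel genes in males was not tested.

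The RefSeq promoter table used here holds 2 starts of *Cacnb2*, on the plus strand of the rat assembly GRCr8 and 123577 bases apart, and need not hold every start. Promoter sequences of both starts are shown, as the sources used here do not say which of the transcripts the *Cacnb2* probe measures. The sequences do not settle this. Each runs from 250 bases before the start to 50 bases after it. Capitals mark 2 overlapping matches to CCGCCC, the other strand of the GC box GGGCGG.
*Cacnb2* start 1, chr17:82472965-82473264: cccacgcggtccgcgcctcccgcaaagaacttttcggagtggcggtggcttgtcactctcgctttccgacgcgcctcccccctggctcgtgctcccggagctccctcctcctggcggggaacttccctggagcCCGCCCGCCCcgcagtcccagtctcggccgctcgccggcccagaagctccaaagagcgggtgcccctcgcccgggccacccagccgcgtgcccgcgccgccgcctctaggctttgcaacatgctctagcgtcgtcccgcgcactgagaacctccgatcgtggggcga
*Cacnb2* start 2, chr17:82596542-82596841: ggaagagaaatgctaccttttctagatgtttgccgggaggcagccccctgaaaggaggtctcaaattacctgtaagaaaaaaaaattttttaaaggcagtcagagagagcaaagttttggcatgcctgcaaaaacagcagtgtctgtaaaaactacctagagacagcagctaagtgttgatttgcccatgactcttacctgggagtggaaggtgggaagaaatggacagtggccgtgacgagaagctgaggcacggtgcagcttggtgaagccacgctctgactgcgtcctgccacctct
The first is rich in G and C (71.7%) and has 37 CpG dinucleotides. The second is 48.7% G and C with 6 CpG dinucleotides, where the median promoter has 7. The motifs searched, on both strands, were the TATA box TATAAA, the GC box GGGCGG and the cAMP response element TGACGTCA, and the second sequence held none of them. GGGCGG was present in 14 of 27 promoters found for 24 of the 34 members (51.9%) and in 33.1% of all 33469 rat promoters in the table. TATAAA was present in 1 of the 27 and in 14.2% of all, and TGACGTCA in 0 of the 27 and in 1.83% of all. A match is a run of letters and not a shown binding site.

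The other 3 beta subunit genes did not pass in any comparison. *Cacnb1* was 0.31 ± 0.13 (SE) higher in extreme than in control females (limma, adjusted p = 0.274) and 0.17 ± 0.08 higher in males than in females (adjusted p = 0.392). *Cacnb4*, a beta subunit known from epileptic mouse mutants, was 0.18 ± 0.10 higher in extreme than in control males (adjusted p = 0.353), a value that became 0.10 without male extreme responder 4. *Cacnb3* differed between extreme and minimal females by -0.07 (adjusted p = 0.837). With the array set as a block that value turned to 0.14. *Cacnb3* itself was 0.35 ± 0.09 (SE) higher in set A than in set B (adjusted p = 0.00454).

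Among calcium channel pores, *Cacna1a* had the smallest p in the comparison of extreme with minimal females. Its values in extreme females were 7.22, 7.21, 7.04, 6.99 and 7.06, and those in minimal females 6.75, 6.89, 6.84, 6.92 and 6.91. The groups did not overlap, but most of these values were below or near the background limit of 7.03. The difference was 0.24 ± 0.09 (SE, adjusted p = 0.13), and 0.17 with the array set as a block. *Cacna1a* and *Cacnb2* were the 2 of 26 members whose groups did not overlap, beside 6.67% of all probes.

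*Cacna1d* and *Cacna1e* gave their smallest p-values in males. *Cacna1d* in male controls was 7.22, 7.32, 7.26, 7.57 and 7.54, and in male extreme responders 7.05, 7.20, 7.24, 7.09 and 7.12. The extreme rats lay in the lower part of a shared range, and the difference was -0.24 ± 0.08 (SE, adjusted p = 0.141). *Cacna1e* in male extreme responders minus male minimal responders was -0.20 ± 0.07 (adjusted p = 0.176). *Cacna1c* gave -0.20 ± 0.10 for minimal minus control in females (adjusted p = 0.457). For extreme minus minimal in males it gave -0.18 ± 0.11 (adjusted p = 0.438), and -0.27 with the array set as a block (adjusted p = 0.376). None of these passed, and all of the groups overlapped.

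The T-type pores, which open near the resting potential, varied widely within groups. *Cacna1h* was 8.73, 8.43, 8.60, 8.13 and 8.20 in extreme females and 8.15, 8.39, 7.90, 7.76 and 8.02 in control females. The groups overlapped, and the difference of 0.38 ± 0.16 (SE) did not pass (adjusted p = 0.309), nor did 0.22 with the array set as a block. In males the extreme minus control value was -0.24 (adjusted p = 0.477), -0.03 without male extreme responder 4, whose *Cacna1h* was 7.19, and -0.39 with the array set as a block (adjusted p = 0.252). The sex difference in extreme minus control was -0.61 ± 0.23 (SE, adjusted p = 0.466), and -0.40 without that rat. *Cacna1g* was 0.35 ± 0.18 higher in extreme than in control females (adjusted p = 0.42) and 0.48 higher with the array set as a block (adjusted p = 0.221).

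The alpha2delta genes gave no call. *Cacna2d1*, the main binding target of gabapentin, was 11.19 at the lowest and 12.18 at the highest rat. Its extreme minus control difference was -0.16 ± 0.14 (SE) in females and 0.21 ± 0.14 in males, and these became -0.01 and 0.36 with the array set as a block (adjusted p = 0.988 and 0.218). *Cacna2d3* group means ran from 8.40 to 8.47.

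**Figure D2:**
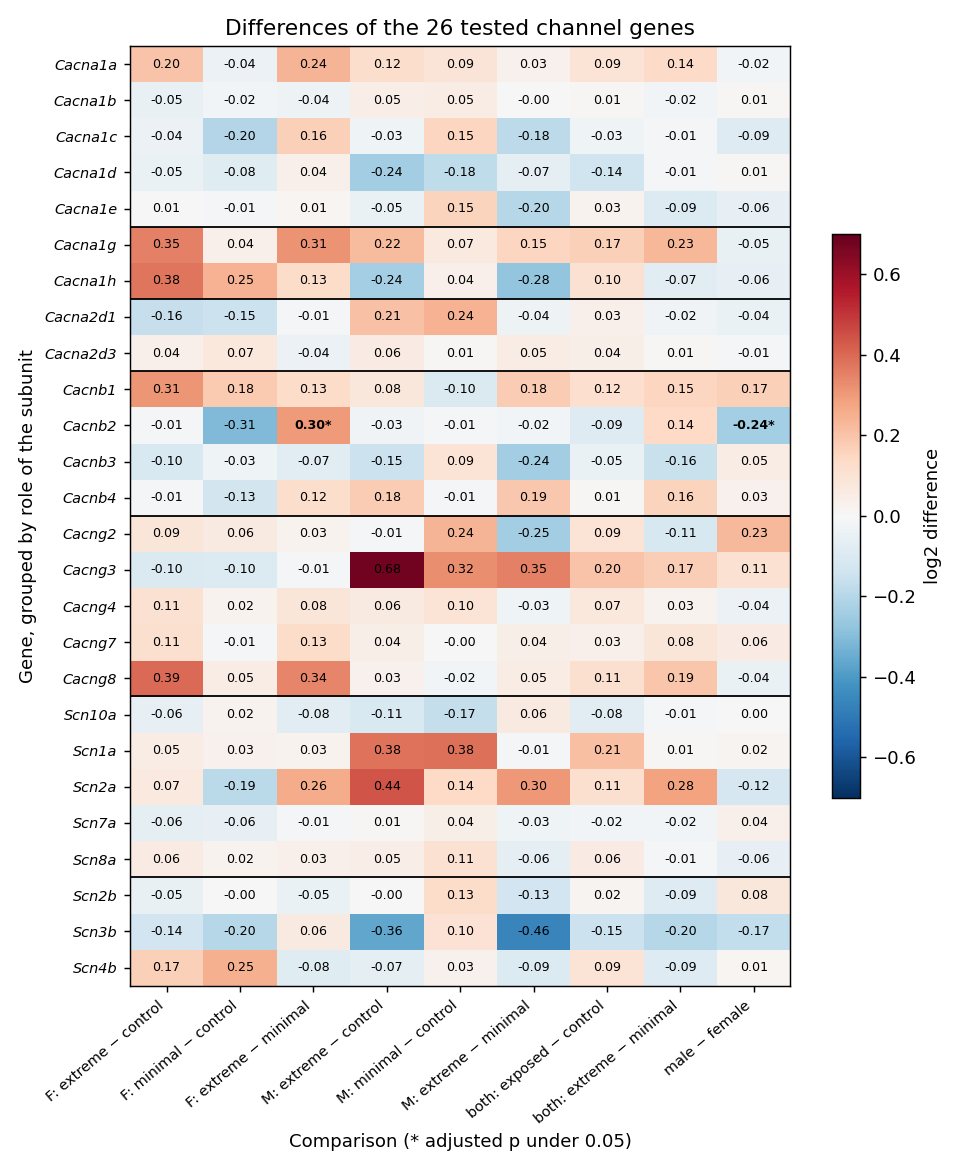
Log2 differences (colour) of the 26 members tested (vertical axis) in 9 of the comparisons (horizontal axis); a star marks an adjusted p under 0.05. The stars stand on *Cacnb2* for extreme minus minimal females (0.30) and for male minus female (-0.24), and no other member has one.

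Sodium channel pores gave the smallest p in males on *Scn2a*, the pore of excitatory neurons and their axon initial segments. *Scn2a* in male extreme responders was 9.51, 9.43, 9.20, 9.73 and 9.35. In male controls it was 9.15, 9.00, 8.81, 8.93 and 9.14. Every extreme male lay above every control male, which made *Scn2a* 1 of 26 members without overlap beside 2.99% of all probes. The means were 9.44 ± 0.20 (SD) and 9.01 ± 0.14 (SD). The difference of 0.44 ± 0.13 (SE) missed the threshold (limma, adjusted p = 0.0889), in a comparison that called 0 of 26 members and 0.622% of all probes. It was 0.30 with the array set as a block (adjusted p = 0.254) and 0.37 without male extreme responder 4 (adjusted p = 0.23).

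*Scn2a* means were also higher in extreme than in minimal responders of each sex, without a call. Extreme females had 9.58, 9.28, 9.73, 9.21 and 9.31, and minimal females 9.16, 9.40, 8.84, 9.33 and 9.07. The ranges overlapped, and the difference was 0.26 ± 0.13 (SE, adjusted p = 0.281). Male minimal responders had 8.90, 9.01, 9.31 and 9.35, and extreme minus minimal in males was 0.30 ± 0.14 (adjusted p = 0.295). Over both sexes the difference was 0.28 ± 0.09 (SE, adjusted p = 0.0636), in a comparison that called 0 of 26 members beside 7.95% of all probes. With the array set as a block it was 0.12 (adjusted p = 0.562), and 0 of 26 members were called beside 2.05% of all probes. The block gave 0.12 in females and 0.13 in males, for a probe whose set A minus set B difference was -0.23 ± 0.09 (adjusted p = 0.0665).

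*Scn1a*, the sodium channel pore best known from inhibitory neurons, was higher in both exposed male groups than in male controls by similar amounts, 0.38 ± 0.21 (SE) in extreme (adjusted p = 0.355) and 0.38 ± 0.22 in minimal responders (adjusted p = 0.998). Male controls had 8.88, 8.97, 8.68, 8.75 and 8.66. Male extreme responders had 9.45, 8.78, 8.86, 9.62 and 9.12, and male minimal responders 8.87, 9.49, 9.10 and 9.24. The exposed males were more widely spread than the male controls, and the groups overlapped. The SD was 0.13 in male controls, 0.26 in male minimal and 0.36 in male extreme responders. Female controls, which were not exposed, had an SD of 0.41. *Scn8a*, the pore of nodes and axon initial segments, had group means from 7.30 to 7.44, and *Scn7a* from 7.01 to 7.10. *Scn10a* was lower in all 4 male minimal responders (6.98, 6.80, 6.91 and 6.81) than in all 5 male controls, 1 of 26 members without overlap beside 1.72% of all probes. Its values lay around the background limit, and the difference of -0.17 ± 0.07 (SE) did not pass (adjusted p = 0.998).

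Among sodium channel beta subunits, *Scn3b* had the largest differences in males. Male extreme responders had 12.89, 13.45, 12.96, 12.19 and 12.95. Male controls had 13.31, 13.27, 13.16, 13.47 and 13.06, and male minimal responders 13.41, 13.31, 13.33 and 13.36. Extreme rats 1, 3, 4 and 5 lay below every control and minimal male, and extreme rat 2 lay among them. Extreme minus minimal was -0.46 ± 0.17 (SE, adjusted p = 0.187), and extreme minus control -0.36 ± 0.16 (adjusted p = 0.25). Without male extreme responder 4 these were -0.29 and -0.19. *Scn4b* was 0.25 ± 0.13 higher in minimal than in control females (adjusted p = 0.475), and *Scn2b* had group means from 7.46 to 7.66.

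**Figure D3:**
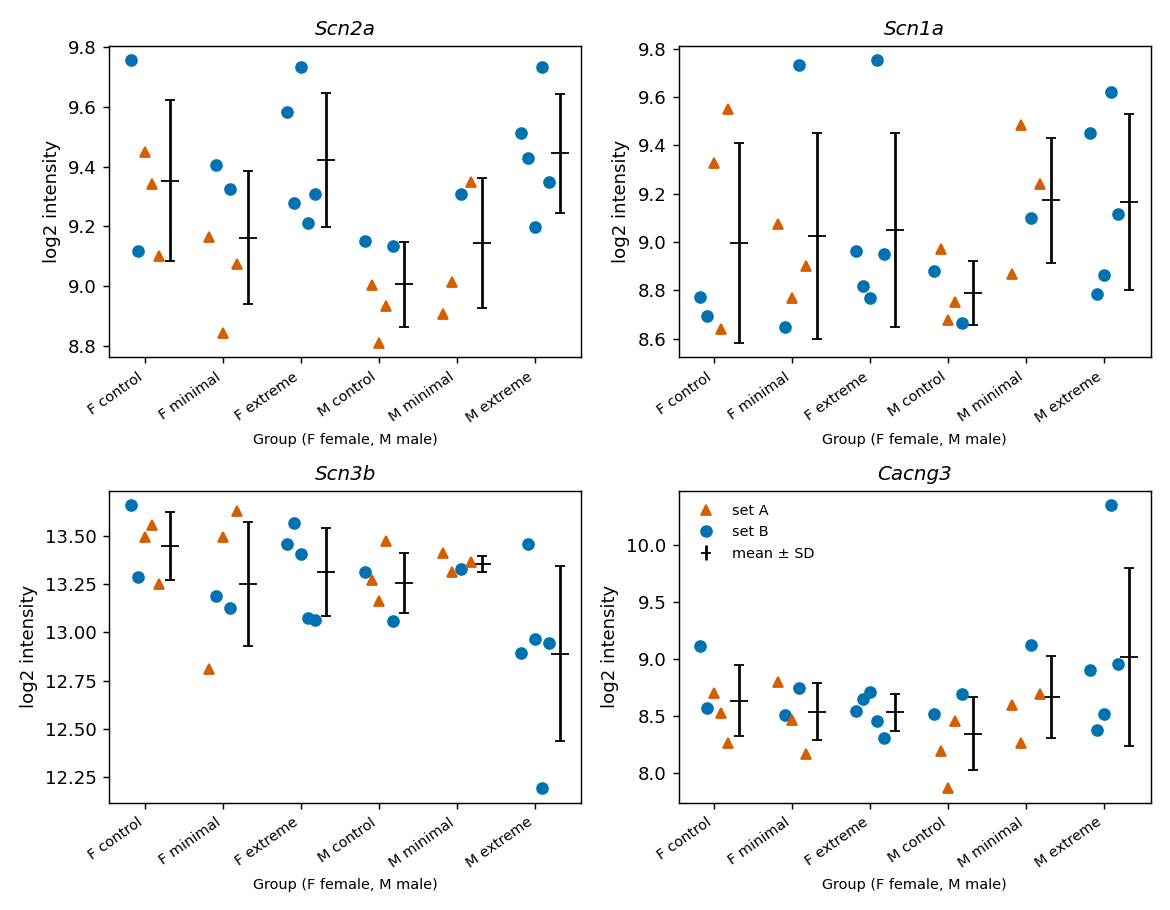
Log2 intensity (vertical axes) of *Scn2a*, *Scn1a*, *Scn3b* and *Cacng3* in each rat, by group (horizontal axes), with triangles for set A, circles for set B and bars for mean and SD. Male extreme responders lie at 9.20 or above on *Scn2a* and male controls at 9.15 or below; male extreme responder 4 is the highest point on *Cacng3* (10.35) and the lowest on *Scn3b* (12.19).

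Of the TARPs, *Cacng3* had the largest difference of any member within males. Male extreme responders had 8.90, 8.37, 8.51, 10.35 and 8.96, and male controls 8.51, 8.19, 7.86, 8.46 and 8.70. The extreme minus control difference was 0.68 ± 0.24 (SE, adjusted p = 0.157) and became 0.34 without male extreme responder 4 (adjusted p = 0.428). *Cacng2*, which encodes stargazin, had the highest male minus female value of the members, 0.23 ± 0.09 (SE), and did not pass (adjusted p = 0.298). *Cacng4* was above background on 9 arrays and had group means from 6.89 to 7.05.

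Several members differed between the array sets. With the 6 groups in the model, set A differed from set B in 4 of 26 members (15.4%), beside 18.9% of all probes. *Cacng8*, a TARP abundant in the hippocampus, was lower in set A by 0.50 ± 0.10 (SE, set A minus set B -0.50, adjusted p = 0.00113). *Cacng7* was lower by 0.29 ± 0.05 (-0.29, adjusted p = 0.000266). Its mean was 6.93 in set A, below the background limit of 7.03, and 7.16 in set B. This probe was above background on 18 arrays, so the size of its difference is uncertain. *Cacng2* was higher by 0.31 ± 0.09 (adjusted p = 0.0196), as was *Cacnb3* above. *Cacng7* and *Cacng8* were named after their values were seen. In the RefSeq gene order *Cacng6*, *Cacng8* and *Cacng7* are direct neighbours, and *Cacng6* was below background. *Cacnb2* did not follow the sets (-0.03 ± 0.05, adjusted p = 0.769).

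Values of these members in comparisons with extreme responders changed when the set was a block. For *Cacng8*, extreme females, all of set B, had 8.91, 8.77, 8.74, 8.44 and 8.55, and minimal females 7.99, 8.72, 8.18, 8.30 and 8.53. The difference of 0.34 ± 0.19 (SE) was 0.04 with the array set as a block. *Cacna1g* went the other way, from 0.31 to 0.44 (adjusted p = 0.219 with the block). Of members with a difference of 0.15 or more in size in either of these fits, 6 of 10 moved by over 1.5 times in the comparison of extreme with minimal females, and 13 of 17 in that of males. Taking members by either fit favours values that moved. The same count was not made over all probes, so it does not set these members apart.

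**Figure D4:**
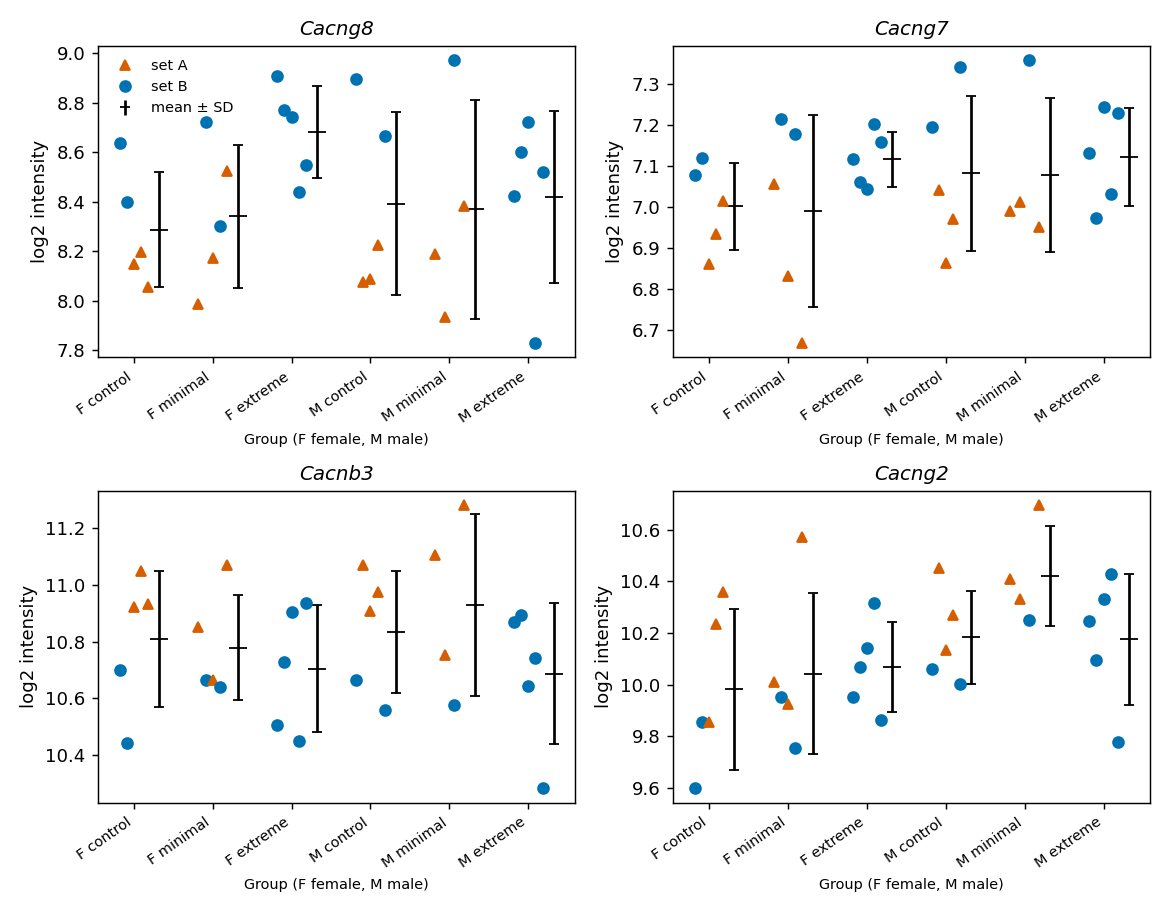
Log2 intensity (vertical axes) of *Cacng8*, *Cacng7*, *Cacnb3* and *Cacng2*, the 4 members that differed between the array sets, in each rat by group (horizontal axes), with triangles for set A and circles for set B. Triangles lie low on *Cacng8* and *Cacng7* (set A minus set B -0.50 and -0.29) and high on *Cacnb3* and *Cacng2* (0.35 and 0.31). The set A mean of *Cacng7* (6.93) is below the background limit of 7.03.

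**Figure D5:**
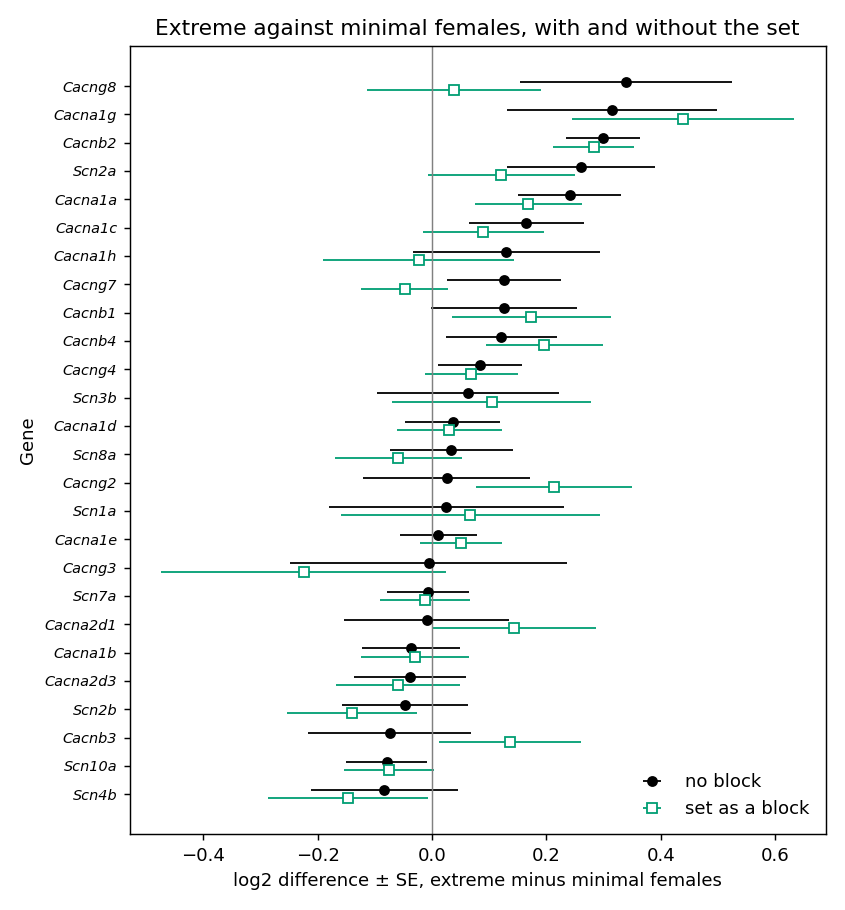
Extreme minus minimal log2 differences in females (horizontal axis, with SE bars) for the members tested (vertical axis), without and with the array set as a block. *Cacnb2* is at 0.30 and 0.28, whereas *Cacng8* goes from 0.34 to 0.04 and *Cacna1g* from 0.31 to 0.44.

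The remaining comparisons called none of the 26 members. In extreme minus control females 0 members were called, beside 1% of all probes, and 0 had groups that did not overlap, beside 3.87%. The members there ran from -0.16 to 0.39 with a median of 0.02 (all probes -0.01). At an unadjusted p under 0.05 there were 4 members in that comparison, beside 13.2% of all probes. In extreme minus control males there were also 4, beside 16.5%, with a median of 0.03 (all probes -0.01). In minimal minus control there was 1 member in females, beside 11.1%, and 2 in males, beside 4.24%. Minimal minus control in males called 0 of 26 members and 0% of all probes. In extreme minus minimal females there were 2, beside 18.4%. In extreme minus minimal males 0 members were called, beside 0.0757% of all probes, and 0 were without overlap, beside 3.84%. In that comparison 3 members had an unadjusted p under 0.05, beside 15.1%. In exposed minus control over both sexes 0 members were called, beside 0.109%, and *Cacna1d* had the smallest p (-0.14 ± 0.05, adjusted p = 0.412). In the sex difference in extreme minus control 0 were called, beside 0.0168%, and *Cacng3* had the largest value (0.78 ± 0.34, adjusted p = 0.526, and 0.44 without male extreme responder 4). The median member had a 95% interval of ± 0.22 around its difference in each female comparison.

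Genes that act with these channels were counted in the same way. Of 22 sodium channel partners and axon initial segment genes 11 were tested, and in extreme minus minimal females 7 were higher, with a median of 0.09 against 0.00 for all probes, and 1 passed, beside 3.79% of all probes. *Sptbn4*, the spectrin of the axon initial segment, rose by 0.55 ± 0.15 (SE, limma, adjusted p = 0.0376), and this was 0.30 with the array set as a block (adjusted p = 0.176). *Trim46*, which organises microtubules there, was 0.27 higher (adjusted p = 0.182). Of 35 calcium channel partners and effectors 26 were tested and 0 passed in that comparison, with 18 higher and a median of 0.07. *Gem*, a small GTPase that binds the beta subunits, had the smallest p (0.21 ± 0.08, adjusted p = 0.106), followed by *Snap25* of the release machinery (0.39, adjusted p = 0.184). In extreme minus control males 0 of 11 and 0 of 26 passed, beside 0.622% of all probes. *Atp2b2*, a calcium pump of the plasma membrane, was 0.39 ± 0.12 higher there (adjusted p = 0.0978), and 0.23 with the array set as a block. *Rims1*, which organises the release site and binds calcium channels, was -0.19 (adjusted p = 0.775) in extreme minus minimal females and -0.10 (adjusted p = 0.897) in extreme minus control males. With that block the values were -0.78 (adjusted p = 0.00445) and -0.69 (adjusted p = 0.0279). *Rims1* was then 1 of 26 called in each, beside 3.26% of all probes in the first and 57 of 11888 in the second. With the block it was also called in extreme minus control females, beside 189 of 11888 probes. Over both sexes it was called in exposed minus control, beside 30 probes, and in extreme minus minimal, beside 244. In extreme minus minimal males *Rims1* was not called. All of these calls used the same set term, and no extreme responder was in set A. Without the block *Rims1* was called in none of these comparisons.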

How the data were processed

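Per the labels, total RNA of dissected hippocampus was copied into biotin-labelled cRNA for Illumina arrays. The deposited values were read as log2 intensities from their range (6.31 to 15) and equal column medians of 6.96, and sorted columns agreed within 0.00119, as after quantile normalisation. The log base, software and background correction are not stated there. Male minimal responder 5 held no values. A second table had 60 columns that match no label and were not used. The background limit, 7.03 when rounded, is the mode (6.7) plus 3 background SDs (0.109). All 6 groups were fitted together in limma 3.58.1 (R 4.3.3; 23 residual and 5.06 prior degrees of freedom), with two-sided p adjusted by Benjamini-Hochberg over the 11888 probes tested, threshold 0.05, in 12 comparisons. The script was tested on simulated data. All 34 members matched RefSeq by gene ID, and 0 symbols differed. Members, lists and array sets were chosen with earlier results of these data known. The genes named are those called in any comparison, the 3 higher and 3 lower with the smallest p in each of the first 8 comparisons, and the members with the largest and smallest sex difference; *Cacna1g*, *Cacng7*, *Cacng8* and the members given by ranges were added after their values were seen. Alternatives were other filters, the array set or the replicate number as a block, each set or sex alone, array weights, cyclic loess, a variance trend with a robust prior, and leaving out each rat. Figures were drawn in Python 3.11.15 with matplotlib 3.10.9.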

Additional observations from a re-analysis of the deposited data

Results flagged for a closer look

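Single rats stood far from the rest of their group in 4 of 114 sets of group values of the 19 named genes, where chance alone gives about 1 in 20. *Cacna1h* in male extreme responder 4 was 7.19, and the nearest male of that group was 8.05. *Cacnb1* in male extreme responder 5 was 8.45, below the nearest at 9.03. *Scn1a* in female extreme responder 4 was 9.75, above the nearest at 8.96. *Scn4b* in male minimal responder 3 was 9.19, above the nearest at 8.61. No rat stood apart in this way on *Cacnb2*.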

How the results depend on the processing

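Of 404 values of named genes under 10 other settings, 398 kept their direction and their side of the threshold. *Cacnb2* in extreme minus minimal females was called under every other setting run except within set B, where it was 0.28 (adjusted p = 0.267) and the count of members called was 0 rather than 1. It was also called in 29 of 29 fits that left out 1 rat (0.28 to 0.33). The male minus female difference of *Cacnb2* was called under all 7 other settings and in 29 of 29 fits without a rat (-0.25 to -0.23). *Cacnb3* changed sign with the array set as a block, to 0.14 in extreme minus minimal females and 0.0787 over both sexes, and to 0.0518 within set B in females. Within set B, *Cacna2d1* (0.0309) and *Scn7a* (0.0251) changed sign in extreme minus control females. None of the 1450 values of named genes without 1 rat changed sign. Leaving out 1 rat gave 0 to 1 members called in extreme minus minimal over both sexes: *Scn2a* passed when the rat left out was male minimal 3, male extreme 3, female minimal 2 or female control 1, and *Cacnb2* when it was male control 5, male extreme 1, male extreme 2 or female extreme 5. The cause of these changes was not tested. Probes called in extreme minus minimal females numbered 450, 697 with array weights and 0 within set B, and in male minus female 25, 75 with array weights and 56 with the array set as a block. Leaving out 1 rat moved the count of probes called from 222 to 616 in extreme minus minimal females, 18 to 79 in male minus female, 6 to 124 in extreme minus control males (74 with all rats), 60 to 211 in extreme minus control females (119) and 0 to 101 in extreme minus minimal males (9), so the shares set beside member counts are uncertain. Over both sexes, extreme minus minimal called 945 probes, and 244 with the array set as a block. Replicate numbers did not pair the rats: same-numbered rats of different groups had correlations of deviations from -0.435 to 0.495 over 70 pairs, and 1 rat correlated best with its own number. With the replicate block the count of members called was 1 in extreme minus minimal females and 1 in male minus female. Within-set fits needed 2 rats per group, so set A allowed minimal minus control, and set B the 3 female comparisons and extreme minus control in males. Signal over background limits *Cacna1a*, *Cacng4* and *Scn10a*, above background on 10, 9 and 8 of 29 arrays. *Cacna1b*, *Cacng7*, *Scn7a* and *Cacnb4* were also near the limit, above it on 15, 18, 18 and 21 arrays.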
